A study of Mus musculus with 4 samples.

Results

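Cells meet misfolded proteins and amino acid shortage with a small number of transcriptional programmes, and 41 genes of these programmes are described here in the mouse colon after a diet with heme, the pigment that gives red meat its iron. They are 8 genes of the heat shock response, 20 of the unfolded protein response of the endoplasmic reticulum (ER) and 13 of the ATF4 branch. A gene's value was the mean of the probe sets that carry its symbol and no other, and 40 of the 41 genes had such a probe set, out of 19938 genes measured this way. Hspa1b, an inducible HSP70 gene, had none. Its near-identical copy Hspa1a was measured, and the value printed for Hspa1a may hold signal from both.

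Heme was fed at 0.5 µmol/g for 14 days to male C57BL/6 mice aged 11 weeks. Every animal, controls included, ate feed that was low in calcium and drew 40% of its energy from fat. Surface cells and crypt cells were cut by laser capture microdissection from frozen rolls of colon. The 4 groups were heme surface, control surface, heme crypt and control crypt, each 1 pool of RNA on 1 Affymetrix array, from 3 mice on heme and 4 on the control diet, with the same mice behind both compartments of a diet. With 1 array per group there is no measure of the spread between mice, no difference below was tested, and no error can be given. A gene is called higher or lower where 2 arrays differed by at least 2-fold (a log2 difference of 1) and a level of 5.75, here called the floor, was reached on at least 1 of them. The floor is the median gene value over the 4 arrays. A difference of at least 1.5-fold is given as a lower step and is always named as such. All levels are log2 values per gene and are compared between arrays only, since values of different probe sets are not on a common scale. In such pools, fewer cells of a type and less RNA per cell cannot be told apart.

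Heat shock factor drives the cytosolic programme: HSP70 and HSP90 chaperones hold unfolded chains, and co-chaperones of the J-domain, BAG and HSP110 families set their cycle. In the ER, the sensors IRE1, ATF6 and PERK react to unfolded cargo. IRE1 splices Xbp1 mRNA, ATF6 is cut to release a transcription factor, and PERK, made from Eif2ak3, phosphorylates the initiation factor eIF2alpha, which slows translation but favours that of Atf4 mRNA. Other eIF2alpha kinases, among them the heme-regulated Eif2ak1, reach ATF4 without ER stress, and ATF4 then raises genes of amino acid supply. The colon epithelium makes large amounts of secreted mucin, and its mucus-secreting cells carry a second IRE1, made from Ern2. An array of this kind measures mRNA and shows neither Xbp1 splicing nor phosphorylation nor ATF4 protein.

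Short motifs known from each of the 3 branches were counted near the start sites, searched on both strands from 250 bases before to 50 bases after the annotated start of each gene (RefSeq, GRCm38.p6). Windows were found for 35 of the 41 members, all but Hspa8, Hsp90aa1, Hyou1, Manf, Ern2 and Atf6, and the share among all 27025 genes with a window gives the background. The ER stress element, CCAAT then 9 bases then CCACG, was in 7 of 16 ER members (43.8%), in 0 of 6 heat shock members and 0 of 13 ATF4 members, and in 37 of all genes (0.137%). The matches are shown because these ER chaperones and lectins recur in the results. Capitals mark the motif, and each stretch reads 5′ to 3′ on the strand of its gene, so that a motif in the reverse direction begins with CGTGG.
Hspa5, chr2:34772015-34772053, plus strand: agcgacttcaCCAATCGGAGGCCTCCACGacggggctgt
Hsp90b1, chr10:86705628-86705666, minus strand: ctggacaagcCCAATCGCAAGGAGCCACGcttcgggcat
Hsp90b1, chr10:86705523-86705561, minus strand: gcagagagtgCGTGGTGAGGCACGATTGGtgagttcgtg
Dnajc3, chr14:118937817-118937855, plus strand: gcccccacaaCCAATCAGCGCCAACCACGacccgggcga
Calr, chr8:84847065-84847103, minus strand: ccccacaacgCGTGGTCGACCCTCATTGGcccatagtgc
Canx, chr11:50325790-50325828, minus strand: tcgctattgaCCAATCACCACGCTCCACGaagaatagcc
Pdia6, chr12:17266481-17266519, plus strand: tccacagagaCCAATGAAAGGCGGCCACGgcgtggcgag
Creld2, chr15:88819510-88819548, plus strand: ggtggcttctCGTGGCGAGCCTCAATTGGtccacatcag
In Hspa5 the motif printed lies 65 to 47 bases before the start, and in Canx 145 to 127 bases before it. Hsp90b1 is the gene shown with a match in each direction.

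The CEBP-ATF response element to which ATF4 binds, searched as TGATGNAAN, was in 4 of 13 ATF4 members (30.8%), in Herpud1 among the ER members and in 1215 of all genes (4.5%). Beside Trib3, whose match lies after the start, the ATF4 members with it were Asns, Chac1 and Nupr1, shown with Herpud1 because these 4 genes had very different heme differences.
Asns, chr6:7693214-7693242, minus strand: cccagccacaTGATGAAACttcccgcacg
Chac1, chr2:119351038-119351066, plus strand: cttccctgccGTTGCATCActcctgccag
Nupr1, chr7:126625563-126625591, minus strand: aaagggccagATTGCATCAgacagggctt
Herpud1, chr8:94386306-94386334, plus strand: accacggcggGTTGCATCAgcccgcaccc
Only the Asns match runs in the direction of its gene among these 4. A heat shock element of 3 units, GAA, TTC and GAA set 2 bases apart, was found in Hsph1 alone of 6 heat shock members, against 179 of all genes (0.662%). A pair of such units, GAANNTTC or TTCNNGAA, was a looser motif chosen after that result was seen. It was in 5 of the 6 heat shock members (83.3%), 0 of 16 ER members, 3 of 13 ATF4 members (Asns, Eif2ak3 and Shmt2) and 4587 of all genes (17%).
Hspa1a, chr17:34972243-34972270, minus strand: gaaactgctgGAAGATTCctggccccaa
Hspa1b, chr17:34959325-34959352, minus strand: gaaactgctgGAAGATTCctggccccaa
Hsph1, chr5:149636352-149636379, minus strand: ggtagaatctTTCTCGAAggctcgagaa
The Hspa1a and Hspa1b stretches are identical letter for letter. The site TGACGTGG, bound by XBP1 and ATF6, was in no member's window and in 193 of all genes (0.714%). A match is a description of these letters and says nothing of binding in these cells.

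The pools carried the marker genes of their compartments. All 10 surface colonocyte markers were higher in the surface pool on each diet (median log2 difference 3.57 on heme and 4.57 on the control diet), and 8 of 10 crypt base markers were lower on heme and 9 of 10 on the control diet. Over all genes, 15.3% were higher and 16.5% lower in surface cells on heme, and 12% and 13.5% on the control diet. Both pairs of pools also differed between diets in markers. In heme against control surface cells, 3 of 3 tuft markers at or above the floor were lower (median over 5 measured -1.17). At 1.5-fold, 4 of 6 crypt base markers at or above the floor were lower there (median over 10 measured -0.29), as were 5 of 10 stromal markers (median over 11 measured -0.45). Pdgfra, of the same stromal list, was higher at that step, at 0.61. Of all genes, 7.92% were lower and 10.5% higher at 1.5-fold in surface cells, and 2.01% were lower and 3.62% higher at 2-fold. Of the plasma cell list, Prdm1 was higher there at 1.61, and mitosis and endothelial markers had medians of 0.27 and 0.06. Of the enteroendocrine list, Gcg at 1.54 and Insl5 at 1.03 were higher in surface cells and Chga at -1.19 was lower. Tmigd1 of the surface colonocyte list was higher in them at 2.28. The median over the 10 genes of that list was -0.02 there, with 5 above 0 and 5 below. In heme against control crypt cells, 5 of 7 measured mitosis markers were higher (median 1.47), 5 of 10 surface colonocyte markers were higher (median 0.93), and 3 of 11 stromal markers were lower (median -0.72). The background there was 1.78% of all genes higher and 1.19% lower. All 7 endothelial markers were below 0 (median -0.68), with 1 lower, and of the tuft markers 1 of 4 was lower (median over 5 measured -0.61). Lgr5 of the crypt base list was lower at -1.07, as were H2-Aa at -1.08 and Csf1r at -1.02 of a further leukocyte list. Of 9 measured goblet markers, none passed 2-fold in crypt cells (median -0.48), while 2 were higher in surface cells (median 0.08). Summed over the list, goblet markers stood at 14.89 (heme surface), 15.00 (control surface), 14.24 (heme crypt) and 14.70 (control crypt) as log2 of the summed linear values. Such a sum gives most weight to the markers with the highest values. Per gene, 6 of the 9 were below 0 in surface against crypt cells on each diet, and 3 above. The medians over the 9 were -0.34 on heme and -0.93 on the control diet. Plasma cells are rich in ER chaperones, and their 8 markers had a median of 0.07 in surface and -0.01 in crypt cells, with Mzb1, Tnfrsf17, Irf4 and Derl3 below the floor on all 4 arrays. Agr2 is in both the goblet and the further ER list, and Mzb1 and Derl3 are in both the plasma cell and the further ER list. What part these markers have in the members' values was not tested.

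In surface cells, heme feeding went with small differences in one direction across most of the 40 measured genes. The heme value was above the control value in 35 of 40, against 43.5% of all genes and 48.5% of those at or above the floor, and the median difference was 0.38, against -0.04 over all genes. Only 2 of 37 members that reached the floor (5.41%) were at least 2-fold higher, beside a background of 3.62%, and none was 2-fold lower, beside 2.01%. At 1.5-fold, 13 of 37 were higher (35.1%), beside 10.5%, and Ern2 was lower, beside 7.92%. The 2 genes past 2-fold, Asns and Phgdh, are both biosynthetic enzymes of the ATF4 branch. The branch medians were 0.67 for heat shock, 0.37 for the ER and 0.37 for ATF4.

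In crypt cells, the same 40 genes were spread around 0. The heme value was above the control value in 23, against 51.7% of all genes and 51.5% of those at or above the floor, and the median difference was 0.06, against 0.01 over all genes. Psat1 and Phgdh were higher, which is 2 of 37 (5.41%) beside a background of 1.78%, and none was lower, beside 1.19%. At 1.5-fold, Hsph1 and Mthfd2 joined them, which makes 4 (10.8%), beside 5.89%, and Dnajb9, Ern2 and Nupr1 were lower (8.11% of the 37), beside 5.6%. The branch medians were 0.34 for heat shock, -0.06 for the ER and 0.08 for ATF4. The 32 members at or above the floor on all 4 arrays stand beside 6 that reached it on some arrays and 2, Hspb1 and Trib3, that reached it on none.

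**Figure D1:**
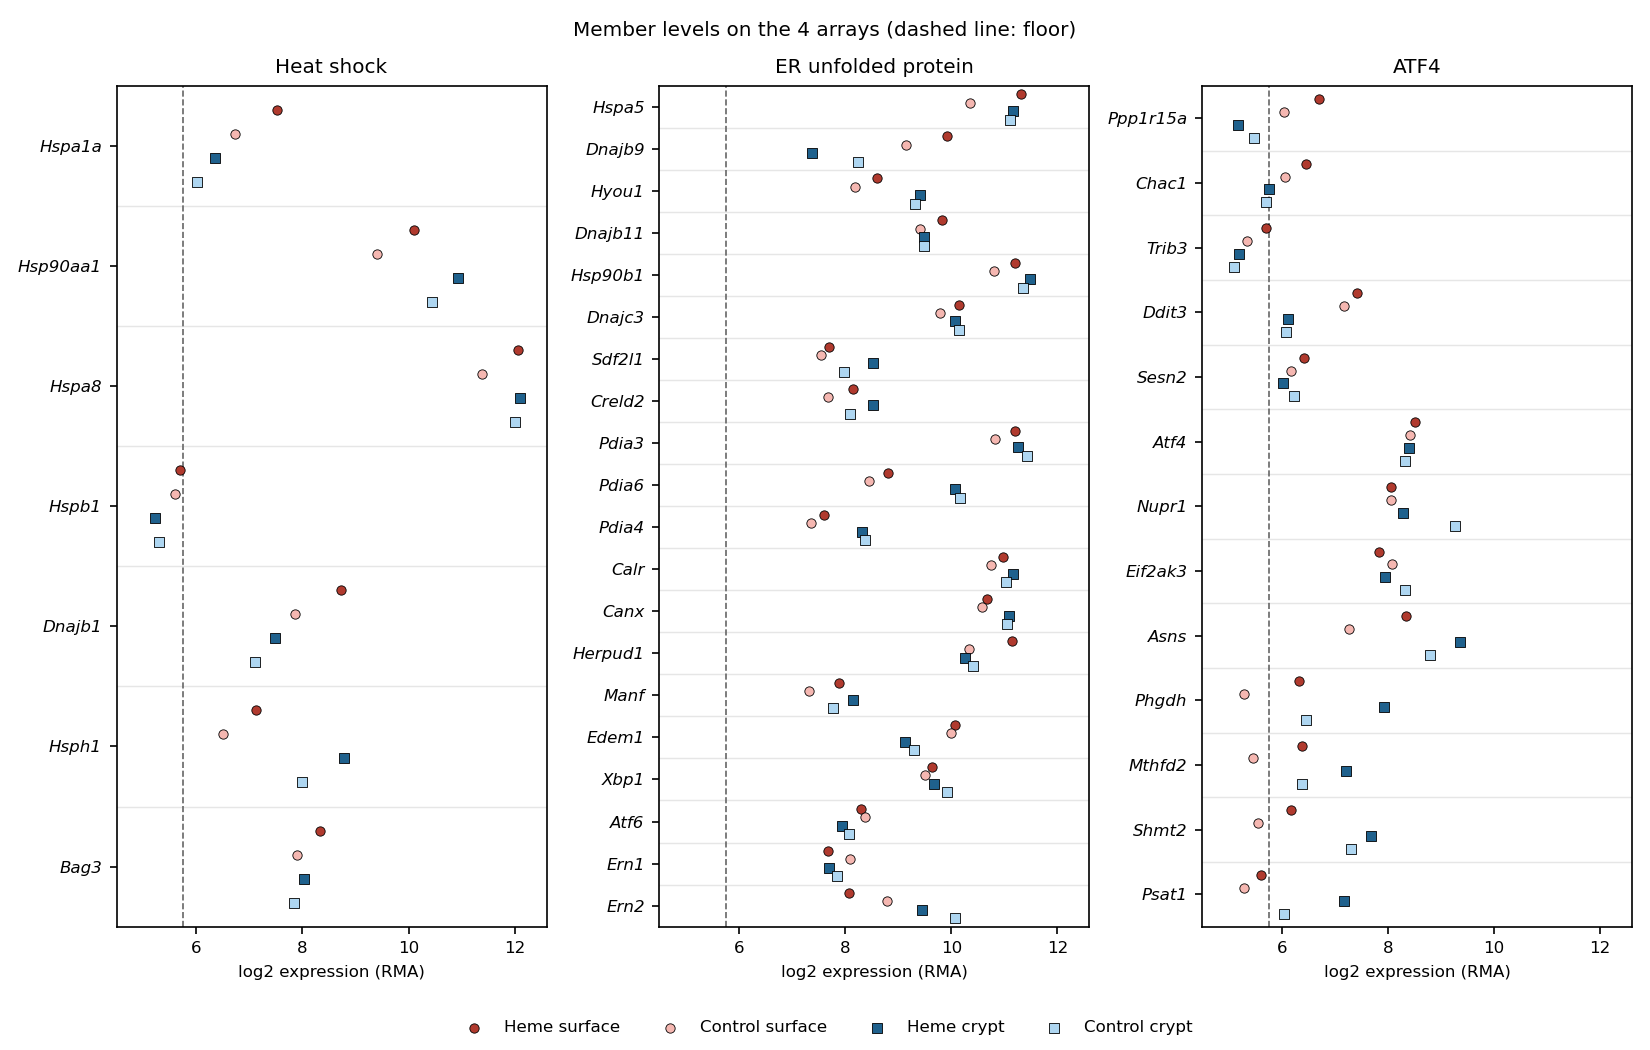
Log2 level (horizontal axis) of each of the 40 measured members on the 4 arrays (heme surface, control surface, heme crypt, control crypt), 1 point per array, in panels for the heat shock, ER and ATF4 branches. Most heme surface points lie a little above their control surface points, as for Hspa5 at 11.32 against 10.35, while Ern2 has its highest value, 10.07, in control crypt cells.

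All 7 measured heat shock genes had a heme value above the control value in surface cells, also under each other scaling tried. As deposited none reached 2-fold, while centring on ribosomal protein genes put Dnajb1 at 1.03. Dnajb1, the J-domain partner that feeds clients to HSP70, stood at 8.72 in heme surface, 7.85 in control surface, 7.49 in heme crypt and 7.11 in control crypt cells. Its heme surface value was the highest of the 4, and the diets differed by 1.82-fold in surface and 1.3-fold in crypt cells. Hspa1a, the inducible HSP70, measured 7.51 in heme surface, 6.73 in control surface, 6.35 in heme crypt and 6.02 in control crypt cells. It followed the same order as Dnajb1, with both surface values above both crypt values and heme above control in each compartment. The heme differences of Hspa1a were 0.79 in surface and 0.34 in crypt cells.

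Hspa8 and Hsp90aa1 had another layout across the compartments. Hspa8, the constitutive HSP70, measured 12.06 in heme surface, 11.39 in control surface, 12.10 in heme crypt and 12.00 in control crypt cells. Control surface was the low value and the others lay close together, so that its heme difference was 0.67 in surface and 0.10 in crypt cells. Its 3 probe sets gave 0.63, 0.63 and 0.73 in surface cells. Hsp90aa1, the inducible cytosolic HSP90, measured 10.10 in heme surface, 9.40 in control surface, 10.94 in heme crypt and 10.44 in control crypt cells. Here the crypt values exceeded the surface values on both diets, with heme above control by 0.70 in surface and 0.49 in crypt cells. Its 3 probe sets differed little, giving 0.66, 0.64 and 0.81 in surface cells.

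Hsph1, the HSP110 that exchanges nucleotide on HSP70, measured 7.12 in heme surface, 6.51 in control surface, 8.78 in heme crypt and 8.00 in control crypt cells. Both crypt values exceeded both surface values, and the heme difference was 0.61 in surface and 0.79 in crypt cells, the largest crypt value of the 7. Bag3, which links HSP70 clients to autophagy, had small differences of 0.42 and 0.18. Hspb1, a small heat shock protein, lay under the floor on all arrays, between 5.23 and 5.70. The 5 heat shock genes past 1.5-fold in surface cells, of 6 at or above the floor, were Hspa1a, Hspa8, Hsph1, Dnajb1 and Hsp90aa1, beside 10.5% of all genes. In crypt cells it was Hsph1 alone of 6, beside 5.89%.

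**Figure D2:**
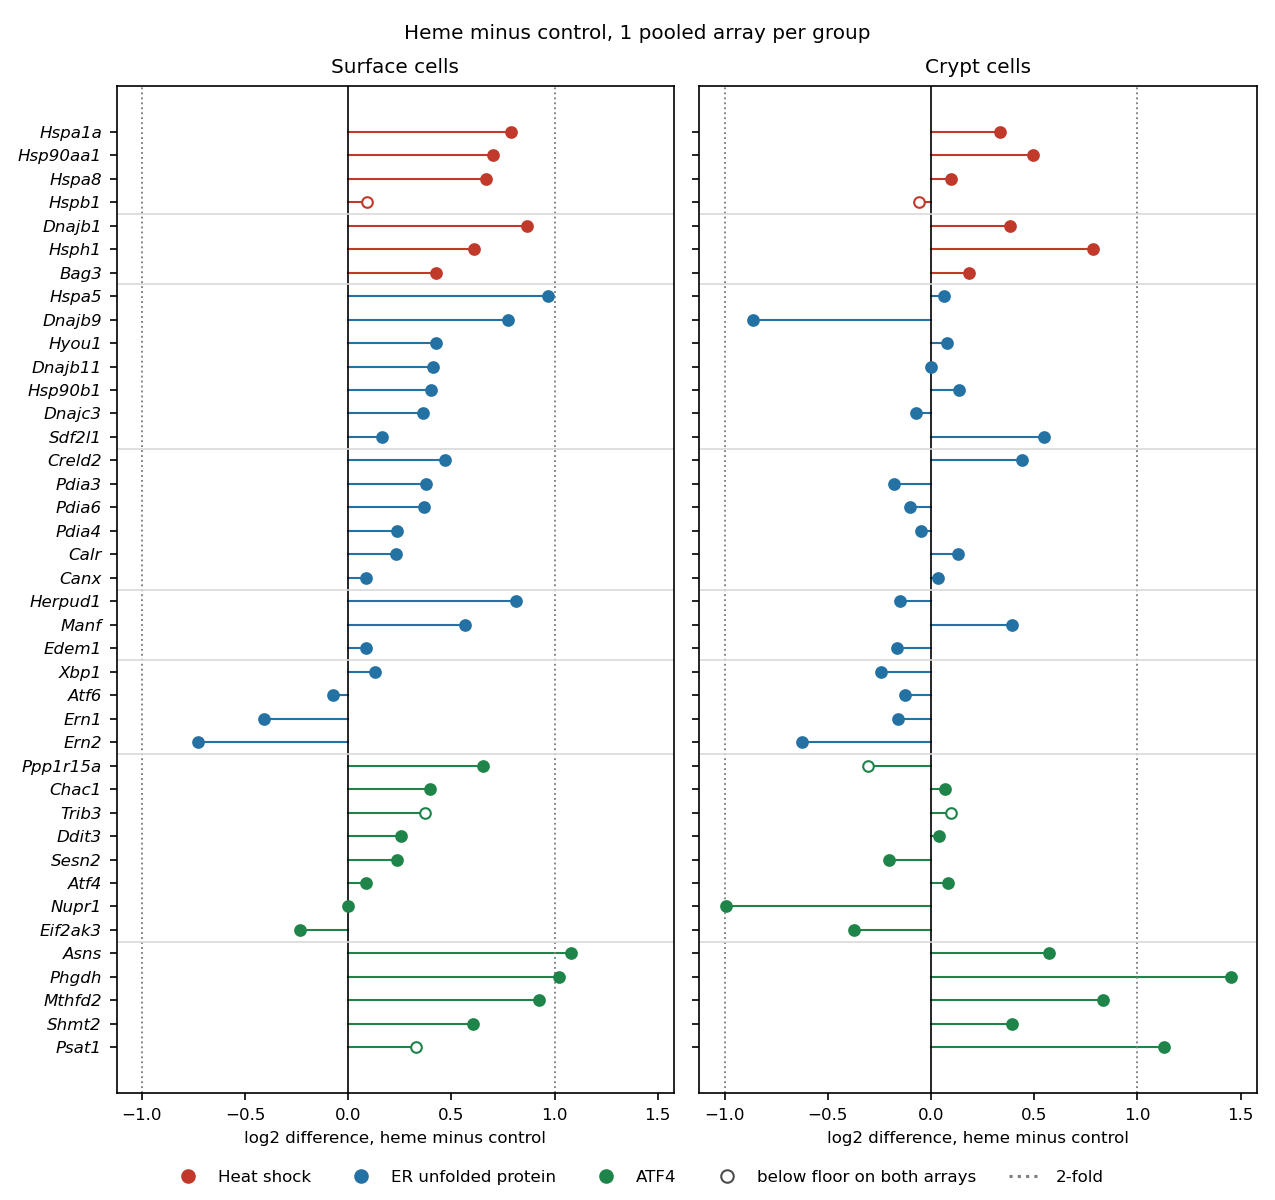
Heme minus control difference (log2) for each measured member in surface and in crypt cells, grouped by branch, with dotted lines at 2-fold and open points for genes below the floor on both arrays. All 7 heat shock genes are above 0 in surface cells, and Asns and Phgdh in surface cells and Psat1 and Phgdh in crypt cells lie past the 2-fold line.

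Among the 20 ER genes, 17 had a heme value above the control value in surface cells, against 43.5% of all genes, and none reached 2-fold. With cyclic loess 15 of 20 were above 0, against 50.5% of all genes, and Canx at -0.08 and Edem1 at -0.02 moved below 0. Centring put Hspa5 past 2-fold, at 1.08 with array medians and 1.13 with ribosomal protein genes. At 1.5-fold 3 of 20 (15%) were higher, namely Hspa5, Dnajb9 and Herpud1, which is near the 10.5% of all genes. Hspa5, the HSP70 of the ER lumen known as BiP, measured 11.32 in heme surface, 10.35 in control surface, 11.16 in heme crypt and 11.10 in control crypt cells. Control surface cells had the low value and the other 3 arrays were near each other, a layout like that of Hspa8. The heme difference was 1.96-fold in surface and 1.04-fold in crypt cells. The median surface difference over the 7 ER chaperones and co-chaperones was 0.41. Hsp90b1, the HSP90 of the ER, had 0.40, Dnajb11 had 0.41, Dnajc3, also known as an inhibitor of PERK, had 0.36, and Hyou1, an HSP110 of the ER, had 0.43. Sdf2l1, a partner of Hspa5, differed by 0.16 in surface and 0.55 in crypt cells.

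Dnajb9, a J-domain protein that assists degradation of ER clients and represses IRE1, measured 9.92 in heme surface, 9.15 in control surface, 7.38 in heme crypt and 8.25 in control crypt cells. The heme value lay above the control value at the surface and below it in the crypt, with differences of 0.78 and -0.86. The next ER gene in that direction in crypt cells was Ern2 at -0.63, and goblet markers had a median of -0.48 there. Herpud1, a membrane component of the degradation machinery and a common readout of ER stress, measured 11.15 in heme surface, 10.34 in control surface, 10.27 in heme crypt and 10.42 in control crypt cells. Its heme surface value stood alone above 3 similar ones, with heme differences of 0.81 and -0.15. Edem1, which directs misfolded glycoproteins to degradation, had 0.09 and -0.16.

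The lectins, the disulfide isomerases and Creld2, a redox protein of the same group, had a median of 0.30 over 6 genes in surface cells and -0.01 in crypt cells. Calr and Canx, the lectin chaperones of glycoprotein folding, had surface differences of 0.23 and 0.09, and both carry the ER stress element shown above. With cyclic loess these 2 differences were 0.06 and -0.08. For the isomerases Pdia3, Pdia4 and Pdia6 the surface differences were 0.38, 0.24 and 0.37 and the crypt differences -0.18, -0.05 and -0.10. The 2 probe sets of Pdia4 gave 0.31 and 0.16 in surface cells. Creld2 and Manf, a secreted protein of ER stress, differed alike in both compartments, by 0.47 and 0.44 for Creld2 and by 0.57 and 0.39 for Manf.

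Ern1 (IRE1 alpha), Ern2, Atf6 and Eif2ak3 had heme values below the control values in both compartments, except that after centring on ribosomal protein genes Atf6 was at 0.09 in surface and 0.07 in crypt cells and Ern1 at 0.04 in crypt cells, and that centring on array medians put Atf6 at 0.04 in surface cells. The group of Ern1, Ern2, Atf6 and Xbp1 had medians of -0.24 in surface and -0.20 in crypt cells. Ern2, the IRE1 of mucus-secreting epithelium, measured 8.07 in heme surface, 8.80 in control surface, 9.44 in heme crypt and 10.07 in control crypt cells. Each heme value lay under its control by more than 1.5-fold, at 0.603 times in surface and 0.648 times in crypt cells, and both crypt values exceeded both surface values. Over the goblet markers the medians in the same comparisons were 0.08 and -0.48. Eif2ak3 measured 7.84 in heme surface, 8.07 in control surface, 7.95 in heme crypt and 8.33 in control crypt cells. Xbp1, the target of IRE1, had nearly flat values of 9.63 in heme surface, 9.50 in control surface, 9.67 in heme crypt and 9.91 in control crypt cells.

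In the ATF4 branch, the members past 2-fold between diets were enzymes of amino acid supply, and among the regulators the values farthest from 0 were those of Ppp1r15a in surface and Nupr1 in crypt cells. Atf4 itself measured 8.51 in heme surface, 8.42 in control surface, 8.41 in heme crypt and 8.32 in control crypt cells. These 4 values span less than those of any member past 1.5-fold, and since the gene is controlled mainly at translation its mRNA is not a measure of its protein. Ddit3, the CHOP transcription factor of prolonged ER stress, measured 7.42 in heme surface, 7.17 in control surface, 6.13 in heme crypt and 6.09 in control crypt cells. The compartment separated its values and the diet hardly did, by 0.26 and 0.04. Ppp1r15a, the GADD34 phosphatase subunit that reverses eIF2alpha phosphorylation, measured 6.70 in heme surface, 6.05 in control surface, 5.18 in heme crypt and 5.48 in control crypt cells. Its heme value was higher by 0.65 at the surface, past 1.5-fold, while both crypt values were under the floor.

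The remaining regulators had low levels or small surface differences. Chac1, which degrades glutathione, measured 6.45 in heme surface, 6.06 in control surface, 5.77 in heme crypt and 5.70 in control crypt cells. Its values lay close to the floor, above it on 3 arrays. Trib3, a pseudokinase that restrains ATF4, reached no more than 5.71 on any array. Sesn2, an inhibitor of growth signalling, had heme differences of 0.24 and -0.21. Nupr1, a small stress-responsive chromatin protein, measured 8.06 in heme surface, 8.06 in control surface, 8.28 in heme crypt and 9.27 in control crypt cells. Control crypt stood apart from 3 similar values, so that the crypt difference was -0.99, which is 0.503 times the control level and just short of the 2-fold rule. The median over the 8 regulators, with Eif2ak3 among them, was 0.25 in surface and -0.08 in crypt cells.

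The 5 enzymes had a median heme difference of 0.93 in surface and 0.83 in crypt cells, and all 5 heme values lay above the control values in both compartments under each scaling tried. Phgdh, the first enzyme of serine synthesis from glycolysis, measured 6.32 in heme surface, 5.30 in control surface, 7.92 in heme crypt and 6.47 in control crypt cells. It was higher with heme in both compartments, by 2.03-fold at the surface, where the control value was under the floor, and by 2.74-fold in the crypt. Asns, the synthetase of asparagine and a standard ATF4 target, measured 8.34 in heme surface, 7.27 in control surface, 9.35 in heme crypt and 8.79 in control crypt cells. The crypt values were the upper ones on both diets, and the heme difference was 2.11-fold in surface and 1.48-fold in crypt cells.

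Psat1, the next enzyme of serine synthesis after Phgdh, measured 5.62 in heme surface, 5.29 in control surface, 7.18 in heme crypt and 6.05 in control crypt cells. It reached the floor only in crypt cells, where heme was 2.18-fold higher. Mthfd2, the mitochondrial folate enzyme abundant in dividing cells, measured 6.39 in heme surface, 5.46 in control surface, 7.21 in heme crypt and 6.38 in control crypt cells. The steps between diets were near each other, at 1.90-fold in surface cells, with the control value under the floor, and 1.78-fold in crypt cells. Other scalings put Mthfd2 past 2-fold in surface cells, at 1.03 with array medians, 1.09 with ribosomal protein genes and 1.03 with cyclic loess. In crypt cells ribosomal centring gave 1.03. Adding 32 to its linear values gave 0.61 in surface cells. Shmt2, which passes a carbon from serine to mitochondrial folate, had heme differences of 0.60 and 0.39, with a control surface value of 5.56, under the floor. Mitosis markers had median heme differences of 0.27 in surface and 1.47 in crypt cells, and their part in the enzyme values was not tested. Their summed level, as log2, was 8.82 in heme surface, 8.42 in control surface, 11.92 in heme crypt and 10.60 in control crypt cells. Adding 32 to the linear values before the log2 step took Asns and Phgdh in surface cells and Psat1 in crypt cells below 2-fold, at 0.94, 0.65 and 0.85.

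**Figure D3:**
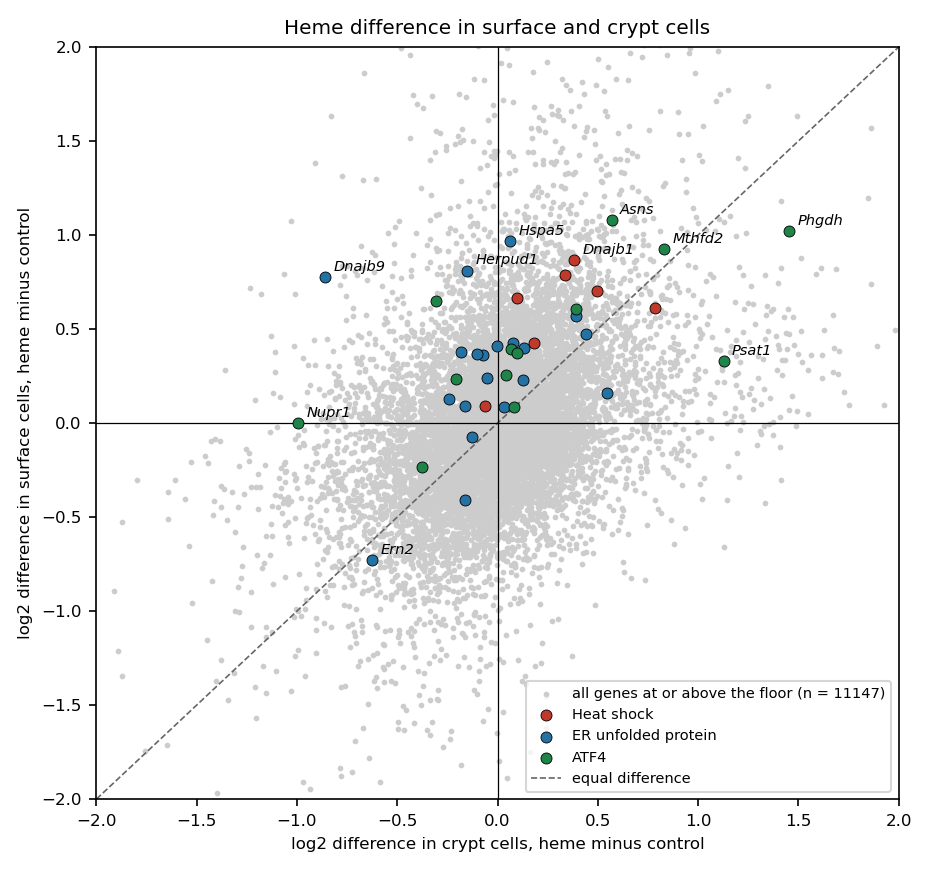
Heme minus control difference in surface cells (vertical axis, log2) against that in crypt cells (horizontal axis, log2), 1 coloured point per measured member and 1 grey point for each of 11147 genes at or above the floor, of which those beyond the axes are not drawn. Dnajb9 at 0.78 and -0.86 lies farthest above the diagonal, and Psat1 at 0.33 and 1.13 lies farthest below it.

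Set side by side, 23 of the 40 members had heme values above the control values in both compartments, against 26.8% of all genes. Another 5 were below 0 in both, namely Ern1, Ern2, Atf6, Eif2ak3 and, with a surface value at 0.00 after rounding, Nupr1, against 31.2% of all genes, and 12 were above 0 at the surface and below 0 in the crypt, against 16.6%. The heme difference was greater in surface than in crypt cells for 34 of 40 members, against 44.6% of all genes and 47.8% of those at or above the floor, with a median of 0.26, against -0.05 over all genes. By the 2-fold rule 1 of 38 differed between compartments, Dnajb9 at 1.64, beside a background of 3.29% in that direction and 2.17% in the other. At 1.5-fold, 5 were greater at the surface, beside 10.1%, and 1 in the crypt, beside 8.18%. These were Dnajb9, Nupr1 at 0.99, Herpud1 at 0.96, Ppp1r15a at 0.96 and Hspa5 at 0.91 on one side and Psat1 at -0.80 on the other. The branch medians of this difference were 0.24 for heat shock, 0.28 for the ER and 0.22 for ATF4.

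More members passed 2-fold between compartments than between diets, and the same held for all genes. In heme-fed mice, 5 of 38 members (13.2%) were higher in surface than in crypt cells, near the background of 15.3%. The 7 lower ones (18.4%) were near the background of 16.5%. The higher ones were Hspa1a, Dnajb1, Dnajb9, Ddit3 and Ppp1r15a, and the lower ones Hsph1, Pdia6, Ern2, Asns, Psat1, Phgdh and Shmt2. On the control diet, Ddit3 alone was higher (2.63% of 38), beside 12%, and 10 were lower (26.3%), beside 13.5%. Those 10 were Hsph1, Hsp90aa1, Pdia4, Pdia6, Hyou1, Ern2, Asns, Phgdh, Shmt2 and Nupr1. The median over the 40 members was -0.05 on heme and -0.41 on the control diet, against 0.00 and 0.06 over all genes. When arrays were centred on ribosomal protein genes, the all-gene median became 1.11 on heme and 1.21 on the control diet. No member was then lower, and 21 were higher on heme and 16 on the control diet. Among all genes at or above the floor, that centring gave 6803 of 12012 higher on heme and 6966 of 11697 on the control diet. These surface to crypt directions therefore depend on the scaling, for the members and for all genes. At 1.5-fold, 8 were higher on heme, beside 24.9%, and 12 lower, beside 27.6%. On the control diet 5 were higher at 1.5-fold, beside 20.2%, and 15 lower, beside 25.2%. Values above 0 were held by 17 of 40 on heme, against 50.4% of all genes, and by 13 of 40 on the control diet, against 55.9%.

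By role, the 5 ATF4 enzymes had surface minus crypt medians of -1.52 on heme and -1.17 on the control diet, and each of the 5 was below 0 on both. Centring on ribosomal protein genes put Asns at 0.10 and Mthfd2 at 0.29 on heme, and Psat1 at 0.39 and Mthfd2 at 0.23 on the control diet, and left the others below 0. The summed level of the mitosis markers, given above, was also below the crypt level in surface cells on both diets, and its part was not tested. Ern2 had differences of -1.37 on heme and -1.27 on the control diet. Dnajb9 differed by 2.54 on heme and 0.90 on the control diet, and Ddit3 by 1.3 and 1.08. Pdia6 differed by -1.26 on heme and -1.73 on the control diet, while the related isomerase Pdia3 differed by -0.05 and -0.61.

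**Figure D4:**
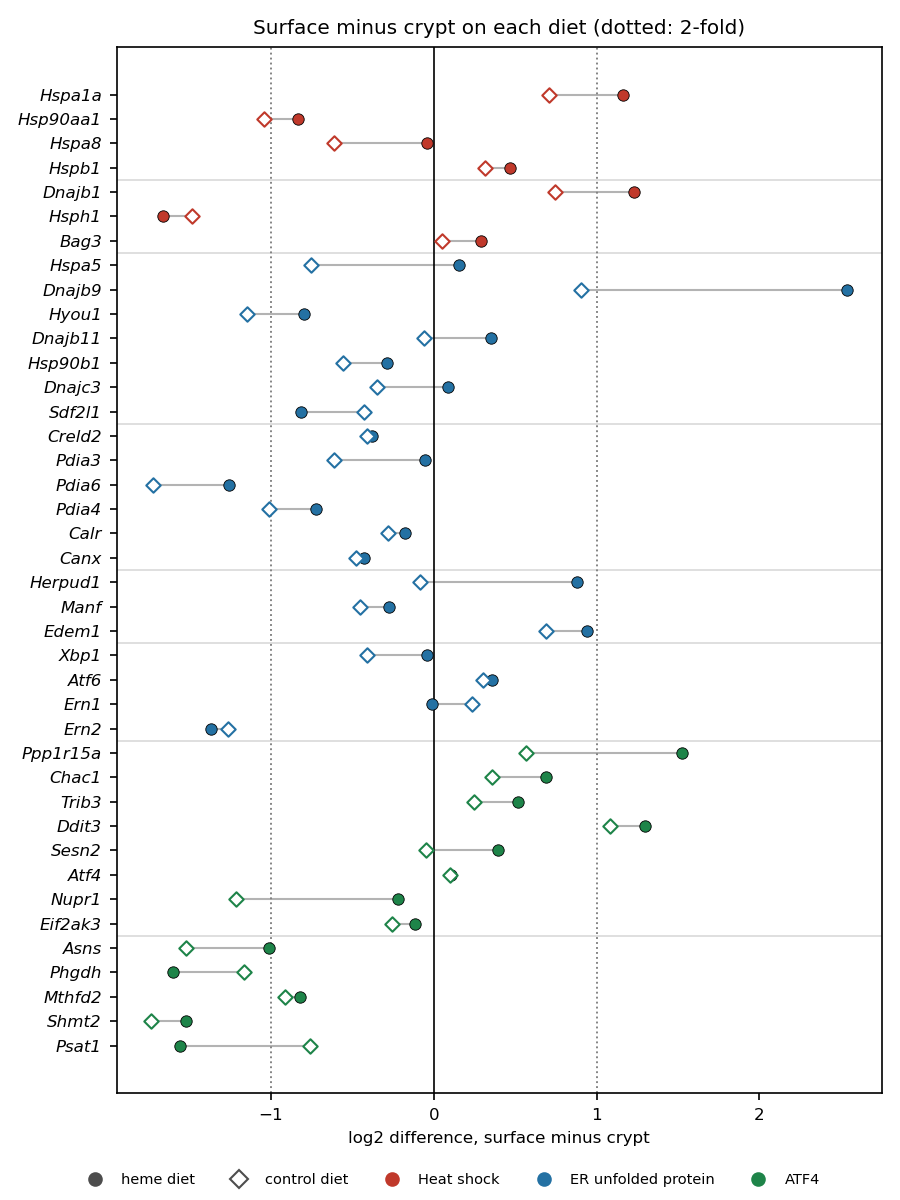
Surface minus crypt difference (log2) for each measured member on the heme diet and on the control diet, grouped by branch, with lines at 2-fold. The ATF4 enzymes lie to the negative side on both diets, and Dnajb9 has the largest positive value, 2.54 on heme against 0.90 on the control diet.

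Other genes of the same pathways, taken from lists that exclude the 41, were read with the same rule. Of 26 further heat shock genes 22 were measured. None of 19 at or above the floor passed 2-fold in surface cells, beside 3.62% of all genes higher and 2.01% lower. The median heme difference was 0.12, with 14 of 22 above 0, against 43.5% of all genes, and 8 below 0. The nearest to 2-fold was Dnaja1, an HSP40, at 0.94, followed by Hspa4l at 0.77 and Stip1, the HSP70 to HSP90 adaptor, at 0.75. Fkbp4 had the lowest value, at -0.40. These genes, and all others of the lists named with a difference below 2-fold, were chosen after their values were seen. In crypt cells none of 20 passed 2-fold, beside 1.78% of all genes higher and 1.19% lower. The median there was 0.22, with 16 of 22 above 0, against 51.7% of all genes. Hsf1, the master factor of the response, had no single-symbol probe set.

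Of 36 further ER genes 35 were measured, with a median of 0.28 in surface and -0.05 in crypt cells, and 29 had heme values above the control values in surface cells, against 43.5% of all genes. The gene past 2-fold, 1 of 31 at or above the floor, beside 3.62% of all genes, was Creb3l3, a membrane-bound transcription factor related to ATF6. It measured 9.45 in heme surface, 6.34 in control surface, 5.57 in heme crypt and 5.15 in control crypt cells, so that a single array stood far above the others, by 3.11 at the surface. Further genes past 1.5-fold were the isomerase P4hb at 0.86 and the secretory genes Sec24d at 0.92, Ssr3 at 0.74, Spcs2 at 0.72 and Sec61b at 0.62, with Creb3l1 at -0.69. With Creb3l3 counted, 6 of 31 were higher at that step (19.4%), beside 10.5% of all genes. Creb3l1 was the 1 of 31 lower (3.23%), beside 7.92%. None of 31 passed 1.5-fold in crypt cells, beside 5.89% of all genes higher and 5.6% lower.

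Among the eIF2alpha kinases other than PERK, no gene passed 1.5-fold between diets in either compartment. Eif2ak1, the heme-regulated kinase, measured 8.64 in heme surface, 8.56 in control surface, 7.79 in heme crypt and 7.61 in control crypt cells. Its values differed by compartment and hardly by diet, by 0.09 and 0.18. The amino acid sensor Eif2ak4 measured 6.60 in heme surface, 6.82 in control surface, 7.24 in heme crypt and 7.33 in control crypt cells. The RNA sensor Eif2ak2 measured 8.24 in heme surface, 8.11 in control surface, 7.68 in heme crypt and 7.75 in control crypt cells.

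The largest heme differences of the 4 lists lay among further ATF4 and amino acid genes. Of 36, 33 were measured, and 7 of 31 were higher in heme surface cells, beside 3.62% of all genes, with a median log2 difference of 0.46. Slc7a11, the cystine importer that is also an NRF2 target, measured 10.27 in heme surface, 4.21 in control surface, 7.52 in heme crypt and 5.72 in control crypt cells. Both control values were under the floor, so its differences of 6.05 and 1.80 are not exact sizes. The others were Slc1a4 at 4.25, a neutral amino acid carrier, Eif4ebp1 at 1.71, the repressor of cap-dependent translation, Cth at 1.68, the enzyme that makes cysteine, Slc6a9 at 1.44, a glycine carrier, Vldlr at 1.44, a lipoprotein receptor, and Wars at 1.01, a transfer RNA synthetase. In crypt cells 2 were higher, beside 1.78%, namely Slc7a11 and Got1, an aspartate aminotransferase, at 1.04, and the median was 0.27. Atf3, a stress factor downstream of ATF4 and other signals, measured 9.32 in heme surface, 8.63 in control surface, 5.81 in heme crypt and 5.30 in control crypt cells. The compartments were far apart for Atf3, with heme differences of 0.70 and 0.51.

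**Figure D5:**
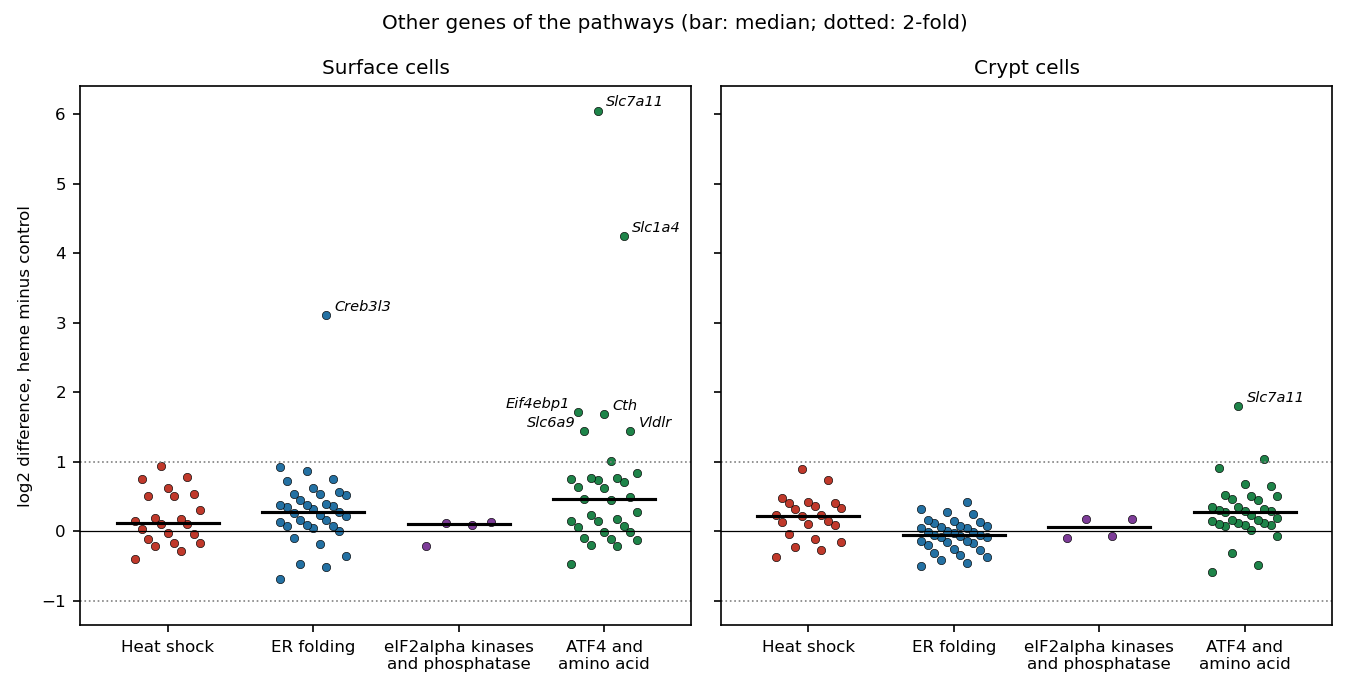
Heme minus control difference (log2) in surface and in crypt cells for the further genes of the 4 pathway lists, 1 point per measured gene, with bars at the medians and dotted lines at 2-fold. Slc7a11 at 6.05, with a control value under the floor, and Slc1a4 at 4.25 lie far above the rest of the ATF4 and amino acid list in surface cells, and Creb3l3 at 3.11 stands alone among the ER genes.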

How the data were processed

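Per the submitters' processing notes, RMA was used to make the deposited log2 values of each probe set, a method with background correction, quantile normalization and a summary over probes. Which version was run, and on which arrays jointly, is not given in the sources used here. Of 35556 probe sets, 21789 had 1 symbol in the platform annotation, 1621 had several and 12146 had none. Symbols were updated through gene identifiers (21698 matched), and single-symbol probe sets were averaged per gene. Detection calls were not used. Precision is limited by the number of arrays.

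Differences of log2 values were counted by the 2-fold rule with the floor. The members and lists were chosen with earlier results of these data known. All 41 members could be named, with up to 6 genes past the rule planned from each pathway list, and Hsf1, 3 eIF2alpha kinases and Atf3 by role. The limit of 6 was not kept for the ATF4 and amino acid list, where each gene past 2-fold between diets was named. Alternatives were a 1.5-fold rule, no floor or a floor raised by 1, the log2 of linear values plus 32, the probe set with the highest mean in place of the mean, cyclic loess, and centring on array medians or on 53 ribosomal protein genes. Python 3.11.15, numpy 2.4.6, pandas 2.3.3, matplotlib 3.10.9, R 4.3.3 and limma 3.58.1 were used. The size rule was tested on simulated data.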

Additional observations from a re-analysis of the deposited data

Results flagged for a closer look

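Dnajb9 was the member whose heme difference had opposite signs in the 2 compartments with at least 2-fold between them. Heme was above control by 0.78 in surface cells and by -0.86 in crypt cells, which are 1.64 apart on the log2 scale. Each value rests on 1 pooled array per group, and the difference was not tested. It lay between 1.5 and 1.68 under the 4 other scalings tried.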

How the results depend on the processing

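No paired analysis was possible because each group holds 1 pooled array and no test was run. Without replicates no alternative says anything about variation between mice, and no depth can be given for arrays. Members below the floor, and differences near 2-fold, limit the counts. In surface cells heme gave 2 genes higher and 0 lower, against 13 and 1 at 1.5-fold, 1 higher with the floor raised by 1, 0 after adding 32 to linear values, 4 with centring on array medians and 5 with centring on ribosomal protein genes. In crypt cells 2 higher and 0 lower became 4 and 3 at 1.5-fold, and 1 higher after adding 32. For the difference of heme differences, 1 higher and 0 lower became 5 and 1 at 1.5-fold, 3 higher with array medians and 2 with cyclic loess. Surface against crypt on heme gave 5 higher and 7 lower, against 8 and 12 at 1.5-fold, 3 higher after adding 32, and 21 and 0 with ribosomal centring. On the control diet it gave 1 higher and 10 lower, against 5 higher at 1.5-fold, 0 after adding 32, 2 with array medians, and 16 and 0 with ribosomal centring. Ribosomal centring turned the ER median for heme in crypt cells to 0.14. On the control diet it turned the surface minus crypt medians of the ATF4 branch to 0.89 and the ER branch to 0.73, and the values of Hsp90aa1 to 0.11, Hyou1 to 0.00298 and Pdia4 to 0.14. On heme it turned the ATF4 median to 1.00, the ER median to 0.99 and Asns to 0.10, while array medians gave 0.038 for the ATF4 branch and 0.0366 for the ER branch. By construction, these centrings move all genes together. The all-gene medians, -0.04 for heme in surface, 0.01 in crypt, 0.00 for surface against crypt on heme and 0.06 on the control diet as deposited, stood at 0.12, 0.21, 1.11 and 1.21 after ribosomal centring and at 0.06, 0.08, 0.16 and 0.17 after centring on array medians. Over all genes, heme in surface cells gave 372 higher and 207 lower, 468 and 158 with array medians and 553 and 142 with ribosomal centring, and in crypt cells 187 and 125, 225 and 94, and 307 and 51. Surface against crypt over all genes gave 1637 higher and 1763 lower on heme, and 6803 and 350 with ribosomal centring. On the control diet it gave 1301 and 1464, and 6966 and 153 with that centring. Members above 0 numbered 33 to 37 of 40 in surface cells, against 43.5% to 66.7% of all genes, and 23 to 33 in crypt cells, against 51.7% to 79.4%. The 33 in crypt cells came with ribosomal centring, where the all-gene share was 79.4%. With cyclic loess the heme difference was greater in surface than in crypt cells for 30 of 40 members, against 46.9% of all genes. For the ER branch it was greater in 14 of 20, against 17 as deposited. The cause of the other moves was not tested.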

Other observations

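The ER stress element was also found near the start of 30 genes that are not members, of which 14 were measured. In surface cells 7 of 14 were above 0, against 43.7% of 15580 measured genes with a window that are not members, and both medians were -0.04. In crypt cells 4 of 14 (28.6%) were above 0, against 52.1%, with medians of -0.03 and 0.01. Alg12, a mannosyltransferase of glycan assembly, had 0.56 in surface cells and Syvn1, the ubiquitin ligase of ER degradation, had 0.16, whereas Ero1b, an oxidase of disulfide formation, had -0.47. Spats2l was the single gene of the 14 past 2-fold, at -1.69 in surface cells, beside 2.01% of all genes lower. Its levels were 7.46 in heme surface, 9.15 in control surface, 5.34 in heme crypt and 6.05 in control crypt cells. These genes were named after their values were seen. For 556 measured genes that are not members and carry the CEBP-ATF response element, the median was -0.02 in surface cells, with 46.4% above 0, against the same 43.7%. Of these 556, 218 reached the floor in surface cells.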
